A study of Mus musculus with 24 samples.

Results

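The 7 hippocampal libraries described here came from stressed mice and were split by 1 transcript. Among the stress libraries with a low share of reads on the ribosomal RNA precursor gene Rn45s, 3 libraries were chosen by Tcf7l2, a transcription factor of the thalamus, at more than 80 CPM (a gene's count per 1000000 counts of the library). They are WT stress 5, KO stress 3 and KO stress 5, and they are called the high-Tcf7l2 libraries below. The remaining 4, WT stress 3, WT stress 4, WT stress 6 and KO stress 4, are called the low-Tcf7l2 libraries. Together they make 7 of the 24 libraries of the series. Because measured values selected the libraries, every difference between the 3 and the 4 is given as a description, with no test. The lowest Tcf7l2 value inside the selection was 92.3 CPM (KO stress 5) and the highest outside it was 9.90 CPM (WT stress 4), with none of the 7 between them.

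The series crossed 2 genotypes with 2 treatments in mice on a C57BL/6 background, and RNA was taken from micro-dissected hippocampus. The stress groups went through social defeat by paired fighting, and the control groups did not. WT stands for wild type (7 control and 6 stress libraries). KO stands for IL-1R1 knockout, a loss of the interleukin-1 receptor that the title of the series places in neurons (6 control and 5 stress libraries). The labels do not name the Cre driver, the age or the sex of the mice, or whether each library is a separate animal, so the spread between libraries may be partly technical. The high-Tcf7l2 libraries hold 1 WT and 2 KO libraries and the low-Tcf7l2 libraries hold 3 WT and 1 KO, so set and genotype cannot be fully told apart. Differences within each genotype are given for some genes only. The sign also differs between the genotypes for other genes below, Fos and Grik4 among them, for which no difference within each genotype is given. The targeted transcript, Il1r1, does not tell the genotypes apart in whole tissue: it was at 1.96 to 7.34 CPM in the 13 WT libraries and at 2.09 to 8.42 CPM in the 11 KO libraries.

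The hippocampus belongs to the telencephalon and lies over the thalamus, with the choroid plexus, the fimbria and the habenula at its border. The thalamus, the habenula and the hypothalamus form the diencephalon, and the midbrain, with its dopamine neurons, lies behind it. Neurons of the thalamus are mostly glutamatergic, use the vesicular glutamate transporter Slc17a6 where pyramidal and granule cells of the hippocampus use Slc17a7, and switch between tonic and burst firing through T-type calcium channels. The telencephalon is marked throughout life by transcription factors such as Emx1 and Neurod2, which diencephalic and midbrain cells lack. In bulk tissue, fewer cells of a type and less RNA per cell cannot be told apart, and a larger share of one tissue lowers the share of every other.

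Total counts were 27922169 to 33220607 in the high-Tcf7l2 libraries and 26157103 to 35148198 in the low-Tcf7l2 libraries, within the range of the series (25711872 to 35148198). At this depth a count of 0 allows a level of up to 0.0854 to 0.115 CPM (3 counts) in the 7 libraries. This limit covers counting error only. The high-Tcf7l2 libraries had a count in 18059 to 18314 genes, more than the 17745 to 17841 of the low-Tcf7l2 libraries. Across genes, the Pearson correlation of log2 CPM was 0.990 to 0.992 between the 3 high-Tcf7l2 libraries, 0.988 to 0.992 between the 4 low-Tcf7l2 libraries and 0.966 to 0.980 between the sets. No 2 of the 7 libraries agreed within counting noise, so each was kept as 1 library.

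Transcripts of the diencephalon and midbrain were higher in the high-Tcf7l2 libraries, and transcripts of the telencephalon were lower. Of 15293 genes with a mean of at least 0.5 CPM, 1430 (9.35%) lay in all 3 libraries above all 4 others with means at least 1.5-fold apart, and 304 (1.99%) lay below by the same rule. Without the 1.5-fold limit the shares were 26.7% higher and 10.6% lower, and these are the shares to set beside the counts of list members that lay in all 3 libraries above or below all 4. The differences are of mean log2(CPM + 0.5), a scale that understates the difference of low genes. At 2-fold the counts were 556 higher and 36 lower, at 4-fold 124 and 0, and at 8-fold 40 and 0. Thus the higher genes reached a difference of 6.04 on the log2 scale (Slc6a3), while the largest lower difference was -1.78 (Dkkl1). The higher genes took up 58655 ± 4241 CPM in the 3 libraries (SD, n = 3) and 30735 ± 3451 CPM in the 4 (SD, n = 4). The lower genes took up 32192 ± 2386 CPM and 56781 ± 2845 CPM. Higher genes made up 82.5% of all those past the rule, and 72.0% when the libraries were scaled by TMM (1150 higher, 447 lower). The median difference over all measured genes was 0.09, and 0.01 with TMM scaling.

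The 3 marker transcripts of the thalamus differed by several log2 units. Tcf7l2 was at 111, 116 and 92.3 CPM in WT stress 5, KO stress 3 and KO stress 5, and at 8.01, 9.90, 5.80 and 9.57 CPM in WT stress 3, 4, 6 and KO stress 4. The same order of the 7 libraries holds for all genes that follow. Tcf7l2 is the transcript that chose the libraries, and its difference was 3.62 (3.76 within WT, 3.37 within KO). Slc17a6, the transporter that loads glutamate into vesicles of thalamic neurons, was at 97.7, 88.5 and 68.6 CPM against 17.1, 16.5, 7.34 and 11.8 CPM, a difference of 2.70. Prkcd, a protein kinase C isoform abundant in thalamic relay neurons, was at 232, 235 and 167 CPM against 23.1, 22.7, 29.7 and 32.1 CPM, a difference of 2.95. For each of the 3 markers the sets did not overlap, and KO stress 5 was the lowest of the 3 high-Tcf7l2 libraries.

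**Figure D1:**
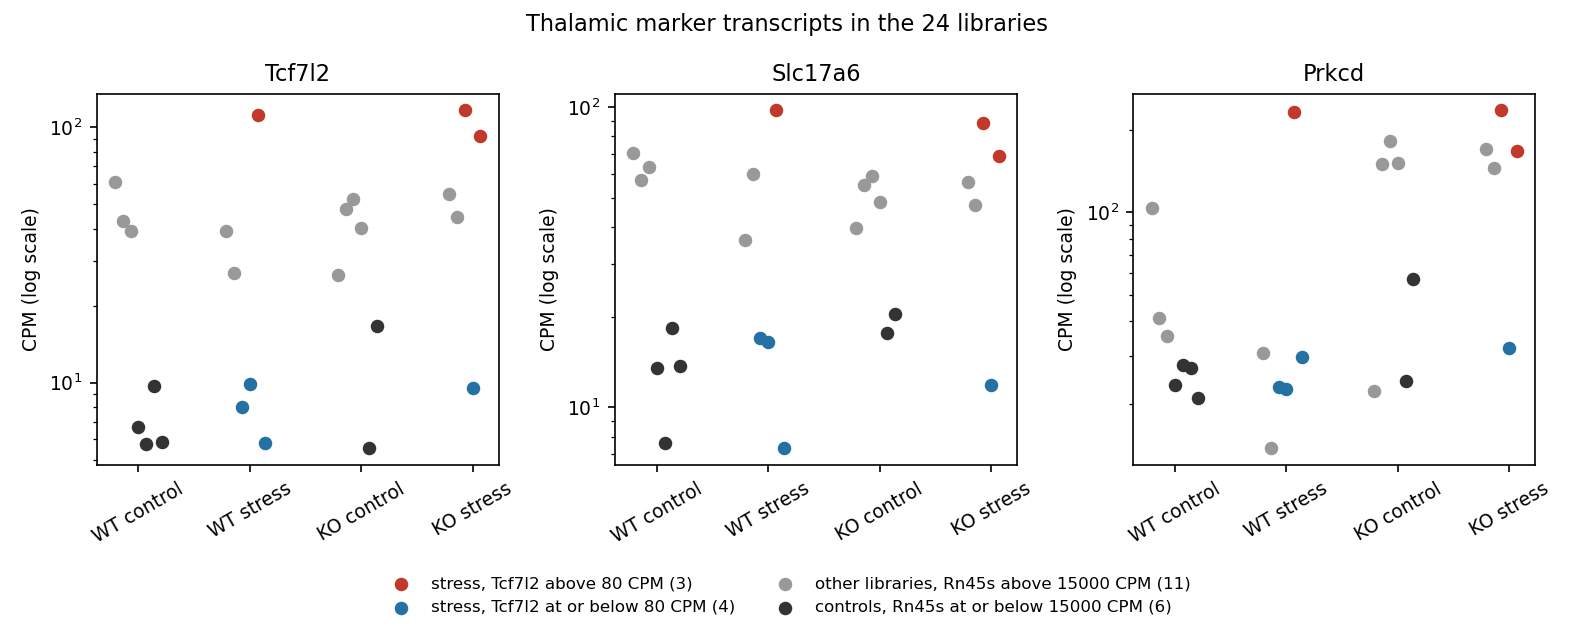
CPM of Tcf7l2, Slc17a6 and Prkcd (log scale) in the 24 libraries by group, 1 point per library, coloured by whether it is among the 3 high-Tcf7l2 stress libraries, the 4 low-Tcf7l2 stress libraries, the other libraries with Rn45s above 15000 CPM or the controls at or below it. The 3 high-Tcf7l2 libraries are the only ones above 80 CPM for Tcf7l2, and the 4 low-Tcf7l2 libraries lie among the low-Rn45s controls.

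Other marker genes of thalamic relay nuclei were higher too. Besides Tcf7l2, which chose the libraries, all 21 measured genes of the thalamus list were higher in all 3 libraries, with differences from 0.73 (Ptpn3) to 4.36 (Shox2) and a median of 2.20. Shox2 and Gbx2 are homeobox factors of thalamic neurons. Shox2 was at 13.5, 14.1 and 11.99 CPM against 0, 0.229, 0 and 0.585 CPM, and Gbx2 at 12.7, 14.5 and 9.12 CPM against 0.129, 0.0765, 0.0569 and 0.585 CPM, so both were close to the limit of detection in the low-Tcf7l2 libraries. Rora, a nuclear receptor of sensory relay nuclei, was at 84.3, 94.9 and 73.5 CPM against 29.7, 24.2, 19.6 and 23.6 CPM (difference 1.78). Lef1, a partner of Tcf7l2 at Wnt target genes, was at 27.4, 32.5 and 20.9 CPM against 10.1, 10.4, 7.23 and 9.79 CPM (difference 1.46). Rora and Lef1, in contrast, were well above that limit in every low-Tcf7l2 library. Without Tcf7l2, the summed level of the list was 1677 ± 121 CPM (SD, n = 3) against 489.8 ± 49.98 CPM (SD, n = 4).

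Tcf7l2 and Lef1 bind DNA as TCF/LEF factors, whose short core motif reads CTTTGA, so the RefSeq promoter windows (mouse build GRCm38.p6, 250 bases before to 50 after a start site) of the genes were searched for it on both strands. The longer form CTTTGAT, which contains the core, was searched too. The core was in 5 of the 29 windows of the 21 matched thalamus genes (17.2%: Lef1, Prkcd, Shox2, Zfhx3 and Zic4) and in 16.0% of all 32851 windows. The longer form was in 0 of the 29 and in 3.73% of all windows. Among the 15 genes with the largest higher differences, 4 of 14 windows held the core (Arhgap36, Pmch, Shox2 and Th), and among the 15 with the largest lower differences 3 of 12 did (Junb, Lamp5 and Vip). The share was 12.6% for all higher genes, 13.1% for all lower genes and 11.9% for all measured genes. A match is a description of the sequence, not a binding site. Shown are a thalamic factor (Shox2, chr3:66981722-66982021, minus strand), 1 of the 3 markers (Prkcd, chr14:30626159-30626458, minus strand) and the enzyme of dopamine synthesis (Th, chr7:142899946-142900245, minus strand), each read along the gene's own strand with the core or its reverse complement TCAAAG in capitals.
Shox2: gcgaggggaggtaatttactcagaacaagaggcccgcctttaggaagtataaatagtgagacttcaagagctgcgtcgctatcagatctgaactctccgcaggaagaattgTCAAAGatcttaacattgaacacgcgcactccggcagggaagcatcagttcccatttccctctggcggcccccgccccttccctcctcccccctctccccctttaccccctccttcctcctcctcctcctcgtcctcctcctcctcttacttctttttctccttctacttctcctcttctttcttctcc
Prkcd: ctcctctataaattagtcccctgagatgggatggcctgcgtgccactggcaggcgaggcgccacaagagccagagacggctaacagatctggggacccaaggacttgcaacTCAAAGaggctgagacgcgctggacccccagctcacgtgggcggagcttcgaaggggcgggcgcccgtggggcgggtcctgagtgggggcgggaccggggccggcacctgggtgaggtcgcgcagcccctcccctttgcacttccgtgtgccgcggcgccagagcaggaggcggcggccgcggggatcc
Th: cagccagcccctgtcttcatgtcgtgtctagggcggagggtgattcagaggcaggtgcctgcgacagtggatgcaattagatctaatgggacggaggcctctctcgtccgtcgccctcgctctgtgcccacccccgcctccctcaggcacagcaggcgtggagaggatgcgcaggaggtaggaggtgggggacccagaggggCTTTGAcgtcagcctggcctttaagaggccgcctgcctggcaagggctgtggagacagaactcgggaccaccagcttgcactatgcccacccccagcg

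The habenula and the prethalamus were present too. All 10 habenula genes were higher in all 3 libraries (median difference 2.04). Pou4f1, the POU factor of medial habenula neurons, was at 6.65, 6.41 and 7.51 CPM against 0.0644, 0.229, 0 and 0.146 CPM, and Gpr151, an orphan receptor of habenula axons, at 9.57, 8.85 and 6.99 CPM against 0.483, 1.07, 0.740 and 1.79 CPM. The nicotinic receptor subunits of the habenula, Chrnb3, Chrna3 and Chrnb4, differed by 2.68, 2.56 and 2.04. Of the 8 genes listed for the reticular thalamus and prethalamus, 7 were higher and 1 was lower in all 3 libraries. Six3 was at 19.5, 30.6 and 13.7 CPM against 0.386, 1.15, 0.228 and 1.02 CPM.

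The label of the selection names the thalamus only, and the data hold more than that. Hypothalamic peptide transcripts were among the largest differences of all. Pmch, which encodes melanin-concentrating hormone of the lateral hypothalamus, was at 52.2, 69.2 and 16.6 CPM against 0.193, 0.0765, 0.228 and 0.110 CPM. Hcrt, which encodes the orexins of the same region, was at 27.2, 60.0 and 5.59 CPM against 0.193, 0.115, 0.114 and 0.365 CPM. The arousal and feeding peptides were thus nearly absent from the low-Tcf7l2 libraries, and KO stress 5 had the least of both among the 3. Of 17 measured hypothalamus genes, 10 were higher in all 3 libraries, 7 overlapped and none was lower (median difference 2.50). Cartpt, another feeding peptide that other regions express too, was at 30.6, 33.9 and 45.6 CPM against 8.53, 3.78, 3.58 and 1.79 CPM. Hdc, the enzyme of histamine synthesis in the tuberomammillary nucleus, was at 14.6, 11.03 and 9.58 CPM against 1.13, 1.53, 3.30 and 2.70 CPM. The magnocellular hormones overlapped or spread widely: Oxt was at 6.47, 35.0 and 0 CPM against 0.386, 0, 0.228 and 0 CPM, and Avp at 11.4, 64.0 and 1.89 CPM against 0.257, 0.0382, 0.854 and 1.10 CPM.

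Transcripts of dopamine neurons showed the largest difference in the table. Slc6a3, the dopamine transporter (chr13:73536747-73578672, plus strand, GRCm38), was at 48.2, 57.9 and 60.8 CPM against 0.322, 0.612, 0.228 and 0.292 CPM. Th, the rate-limiting enzyme of dopamine synthesis, was at 40.1, 45.1 and 44.1 CPM against 1.29, 0.765, 0.910 and 0.731 CPM (difference 4.95). The 3 libraries lay within a narrow range for both genes, in contrast to the spread of Pmch and Hcrt. Of 11 dopamine neuron genes, in a list drawn up after values were seen, 10 were higher in all 3 libraries (median difference 3.14). The vesicular monoamine transporter Slc18a2 differed by 2.34, the decarboxylase Ddc by 2.48 and the receptor tyrosine kinase Ret by 3.14. The exception was Nr4a2, which is also induced by activity in the forebrain and overlapped (difference -0.42). Of 14 pretectum and midbrain genes, 13 were higher (median 2.44). En1, a homeobox factor of midbrain and anterior hindbrain, was at 4.15, 3.44 and 8.07 CPM and had no count in the 4 low-Tcf7l2 libraries. All 6 mammillary and subthalamic genes and all 4 cholinergic genes, both lists drawn up after values were seen, were higher in all 3 libraries. With genes at 0 in all 4 libraries set to the 3-count limit, the median of the reticular thalamus and prethalamus list moved from 2.45 to 2.32, and those of the midbrain, dopamine, mammillary and pituitary lists did not move.

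Serotonin neuron transcripts separated 1 library from the other two. Of 6 serotonin neuron genes, in a list drawn up after values were seen, 3 were higher in all 3 libraries and 3 overlapped (median 1.22). Tph2, the enzyme of serotonin synthesis in the raphe nuclei, was at 22.1 CPM in KO stress 5, at 0.512 and 1.65 CPM in WT stress 5 and KO stress 3, and at 0.825 to 1.64 CPM in the low-Tcf7l2 libraries. Slc6a4, the serotonin transporter, was at 20.2 CPM in KO stress 5, at 0.301 and 0.0716 CPM in the other two, and at 0 to 0.365 CPM in the 4. KO stress 5 also had the most En1, Gata3 (8.53 CPM against 3.55 and 3.58 CPM) and Pax7 (2.20 CPM against 0.482 and 0.824 CPM), factors of the midbrain and hindbrain. None of the 10 hindbrain Hox genes, listed after values were seen, reached a mean of 0.5 CPM. They summed to 5.87 CPM in KO stress 5, to 0.181 and 0.358 CPM in WT stress 5 and KO stress 3, and to 0 to 0.322 CPM in the 4. Of 7 cerebellum genes, in another such list, 3 were higher and 1 was lower in all 3 libraries (median 0.84), the largest being Calb2, a calcium buffer that many midbrain and thalamic neurons also express (2.78).

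KO stress 3 had the most hypothalamic RNA of the 3. It was at least 2-fold above both others for 11 genes, among them Avp, Oxt, Hcrt and Pomc (25.5 CPM against 6.32 and 3.15 CPM), the precursor of melanocortins that both the hypothalamus and the pituitary make. KO stress 5 was at least 2-fold above both others for 18 genes, led by Slc6a4 and Tph2. WT stress 5 was above both for 12 genes, among them the blood leukocyte transcripts Plac8 (4.76 CPM against 0.143 and 1.57 CPM), Ccr2 and Retnlg. Pituitary hormone transcripts differed between the 3 as well, with 2 of 4 genes, listed after values were seen, higher in all 3 libraries (median 1.79). Gh, growth hormone, was at 0.602, 29.98 and 39.1 CPM in WT stress 5, KO stress 3 and KO stress 5 and had no count in the 4. Prl, prolactin, was at 0.120, 11.6 and 5.45 CPM against 0 to 0.219 CPM. Neither reached more than 0.209 CPM in any of the other 17 libraries.

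**Figure D2:**
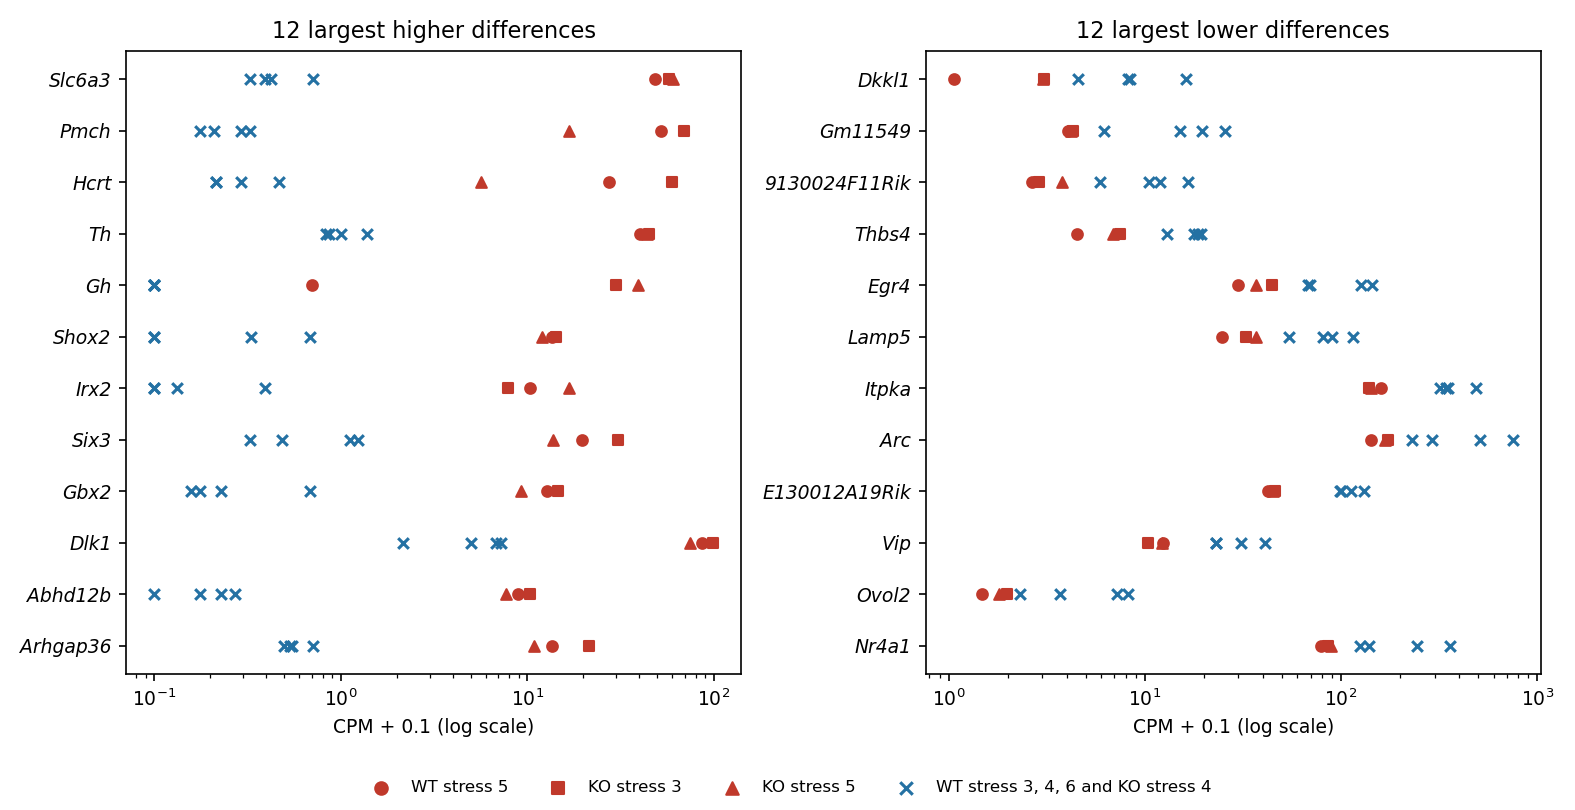
CPM + 0.1 (log scale) in each of the 7 libraries for the 12 genes with the largest higher and the 12 with the largest lower log2 differences, with red symbols for the 3 high-Tcf7l2 libraries and blue crosses for the 4 low-Tcf7l2 libraries. Apart from Dlk1, the higher genes are at or below 1.29 CPM (Th) in the 4 libraries, whereas every lower gene is still present in the 3.

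Glial transcripts showed a regional pattern. All 7 genes listed for astrocytes outside the telencephalon were higher in all 3 libraries (median difference 2.29). The largest differences were those of Irx2 (4.34), Irx1 (3.12) and Irx5 (2.48). Irx5 is also in the mammillary and subthalamic list, so the count and median may not describe astrocytes alone. Slc6a11, the GABA transporter GAT-3 of astrocytes outside the telencephalon, was at 627, 693 and 683 CPM against 193, 186, 177 and 189.8 CPM (difference 1.84). Agt, angiotensinogen, was at 143, 173 and 130.5 CPM against 30.1, 33.4, 29.6 and 26.4 CPM (difference 2.29). The sets were far apart for both genes. Genes that astrocytes share across the brain differed little: of 12, 6 were higher and 3 lower in all 3 libraries (median 0.26), but only 1 of them by 1.5-fold. Aqp4 differed by 0.71 and Gfap, which was lower, by -0.22. Oligodendrocyte and myelin genes were higher for 19 of 21 (median 0.87), 16 of them by 1.5-fold, and the largest gain in share of reads of any gene was that of Mbp, myelin basic protein, at 5421 ± 1074 CPM (SD, n = 3) against 3293 ± 634 CPM (SD, n = 4). WT stress 6 had the least myelin RNA of the 7, with 2342 CPM of Mbp where the other low-Tcf7l2 libraries had 3586 to 3646 CPM. Oligodendrocyte precursor genes were higher for 2 of 5 (median 0.26). Endothelial genes were higher for 4 of 15 (median 0.11), the share of all genes, and 0 of them by 1.5-fold. Microglial genes were lower for 4 of 13 (median -0.24), 1 of them by 1.5-fold, among them Fcrls, at 8.16, 8.45 and 8.81 CPM against 25.8, 12.1, 12.2 and 21.4 CPM.

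The choroid plexus varied within both sets. Ttr, the thyroxine carrier that choroid plexus epithelium secretes, was at 2128, 2048 and 769 CPM in the high-Tcf7l2 libraries and at 10.6, 645, 10.95 and 1717 CPM in the low-Tcf7l2 libraries, which overlapped. Its difference was 5.62 within WT and -0.45 within KO. Of 17 choroid plexus genes, 1 was higher in all 3 libraries and 16 overlapped, although the median difference was 1.51. The gene that did not overlap was Slc13a4, a sulfate transporter (difference 0.67). KO stress 4 and WT stress 4 thus had choroid plexus RNA with little Tcf7l2. Ependymal genes were higher for 4 of 7 (median 1.17).

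Channels and receptors that shape firing differed by gene. Of 16 channel genes 10 were higher and 1 was lower in all 3 libraries (median 0.58). Cacna1g, the T-type calcium channel of thalamic bursts, was at 144, 153 and 145 CPM against 81.1, 74.5, 57.5 and 71.5 CPM (difference 1.06). Hcn4, the slow pacemaker channel of the thalamus, was at 8.85, 10.4 and 10.4 CPM against 1.74, 2.52, 0.626 and 1.39 CPM (difference 2.41). The sodium channel subunit Scn4b differed by 1.45 and the potassium channel Kcnc2 by 0.66. Of 12 GABA-A receptor subunit genes, 3 were higher, 2 lower and 7 overlapped, close to the shares of all genes. Their median difference was 0.07 (-0.01 with TMM scaling), and their sums lay close together, at 916 ± 12.2 CPM (SD, n = 3) and 923 ± 11.97 CPM (SD, n = 4). Gabra5, the extrasynaptic subunit concentrated in hippocampal pyramidal cells, was at 106, 80.01 and 99.7 CPM against 108, 133, 166 and 157 CPM (difference -0.56). Gabrg1 was higher, at 18.2, 21.7 and 19.6 CPM against 11.7, 11.7, 10.1 and 8.92 CPM. Of 13 Wnt pathway genes other than Tcf7l2, 7 were higher and none was lower (median 0.44), with Lgr5 (1.79), Lef1 and Lgr6 (1.21) the largest.

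**Figure D3:**
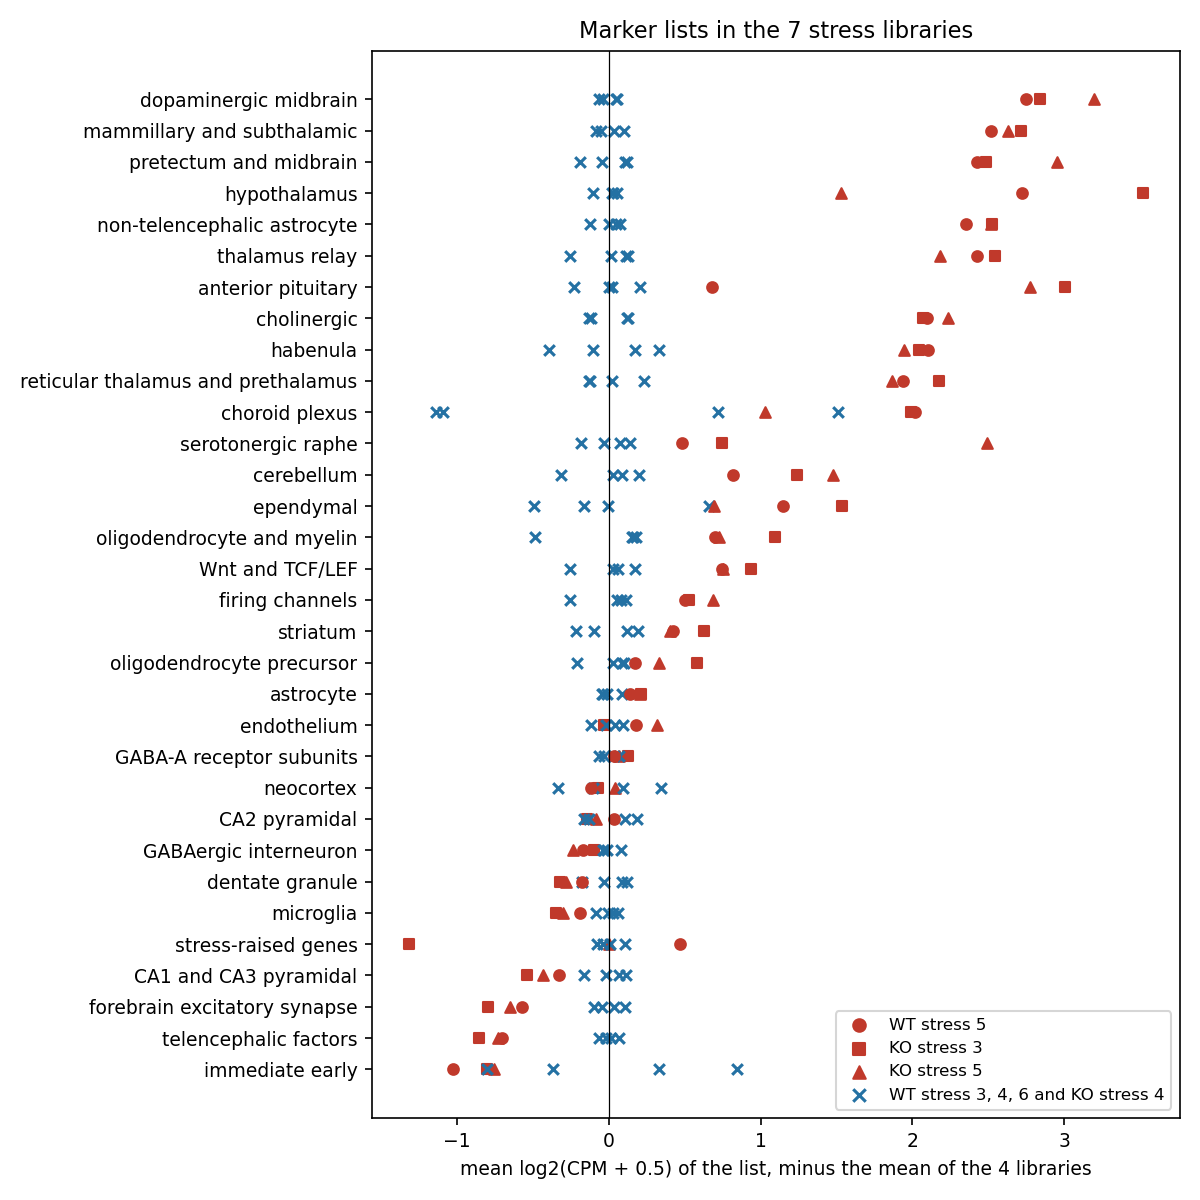
Mean log2(CPM + 0.5) of each marker list in each of the 7 libraries, minus the mean of the 4 low-Tcf7l2 libraries, with red symbols for the 3 high-Tcf7l2 libraries and blue crosses for the 4. Diencephalic, midbrain and regional astrocyte lists lie to the right in all 3 libraries, the telencephalic factor and forebrain synapse lists lie to the left, and the choroid plexus list spreads within both sets.

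On the lower side, transcription factors of the telencephalon were low as a group. The part of the added diencephalic and midbrain RNA in the differences of telencephalic, synaptic, hippocampal, interneuron and activity-induced genes was not tested. All 8 listed factors were lower in all 3 libraries, with differences from -1.03 to -0.37 and a median of -0.80 (-0.88 with TMM scaling, -0.70 in the WT libraries alone). Emx1, a factor of cortical and hippocampal excitatory neurons, was at 13.03, 11.96 and 11.9 CPM against 29.2, 25.5, 23.3 and 24.7 CPM (difference -1.03). Neurod2, a factor of the same neurons, was at 164, 124 and 134 CPM against 231, 258, 332 and 309 CPM (difference -1.001). For Emx1 the gap between the sets was wider than the range of either. The summed level of the 8 genes was 508 ± 36.0 CPM (SD, n = 3) against 906 ± 68.5 CPM (SD, n = 4).

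Transcripts of forebrain excitatory synapses gave the largest losses in share of reads. Camk2a, the calcium and calmodulin-dependent kinase of dendritic spines, was at 2866, 2262 and 2555 CPM against 4575, 4523, 4971 and 4799 CPM (difference -0.89). Nrgn, neurogranin, which buffers calmodulin in spines (chr9:37544492-37552904, minus strand), was at 1476, 1274 and 1140.1 CPM against 2979, 2527, 3159 and 2889 CPM (difference -1.16). Slc17a7, the vesicular glutamate transporter of hippocampal pyramidal and granule cells, was at 1388, 1200.4 and 1316 CPM against 2138, 2304, 2421 and 2304 CPM (difference -0.82). Slc17a7 and Slc17a6 thus differed in opposite directions. Of the 13 synapse genes 9 were lower in all 3 libraries and 4 overlapped (median -0.82). The receptor subunits were among those that overlapped: Gria1 differed by -0.30, Grin2a by -0.07 and Grin2b by 0.07. Itpka, an inositol trisphosphate kinase bound to spine actin, differed by -1.34.

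The median differences of hippocampal field markers were smaller than that of the telencephalic factors. Of 15 CA1 and CA3 pyramidal genes 5 were lower in all 3 libraries, 10 overlapped and none was higher (median -0.24), and their summed level was 821 ± 63.1 CPM (SD, n = 3) against 1267 ± 146 CPM (SD, n = 4). Neurod6 was at 108, 79.3 and 101 CPM against 141, 155, 195 and 211 CPM (difference -0.86), while Grik4, the kainate receptor subunit of CA3, was at 50.5, 42.7 and 49.0 CPM against 37.9, 42.1, 49.6 and 58.9 CPM (difference 0.02). Of 13 dentate granule genes 6 were lower and 7 overlapped (median -0.37), with sums of 316 ± 18.1 CPM (SD, n = 3) against 394 ± 52.0 CPM (SD, n = 4). Prox1, the homeobox factor of granule cells that thalamic neurons also express, overlapped (14.6, 12.1 and 11.95 CPM against 12.1, 9.86, 10.3 and 11.8 CPM), and C1ql2, a synaptic organizer of mossy fibres, was at 95.1, 91.3 and 70.7 CPM against 98.2, 100.4, 160.0 and 144 CPM. The 6 CA2 genes were divided, with sums of 135 ± 10.3 CPM (SD, n = 3) against 179.7 ± 34.8 CPM (SD, n = 4). Rgs14 was at 69.5, 52.6 and 55.0 CPM against 90.0, 105, 154 and 112 CPM (difference -0.94), whereas Amigo2 (0.73) and Cacng5 (0.99) were higher. Lists for striatum and neocortex, the other telencephalic neighbours, had medians of 0.23 and -0.21, with 5 of 11 and 2 of 11 genes higher in all 3 libraries and 0 and 2 lower, where 26.7% of all genes were higher and 10.6% lower. In the KO libraries alone the neocortex median was 0.11. Drd2, the D2 dopamine receptor, which dopamine neurons carry as well as striatal neurons, was the largest of the striatal differences (11.3, 11.6 and 10.6 CPM against 1.09, 0.650, 1.82 and 1.61 CPM).

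Inhibitory neuron genes split by the kind of gene. Of 17 measured, 4 were higher, 7 lower and 6 overlapped (median -0.18). The higher 4 were Gad1 (0.30) and Gad2 (0.86), the enzymes that make GABA, Slc32a1 (0.56), its vesicular transporter, and the calcium buffer Pvalb (0.59), all of which inhibitory neurons of the diencephalon and midbrain also use. Gad2 was at 141, 159 and 159 CPM against 75.5, 95, 79.5 and 86.1 CPM. The lower genes included the peptides Vip (12.2, 10.3 and 12.2 CPM against 41.0, 31.0, 23.0 and 22.9 CPM), Npy (-0.88), Cck (-0.73) and Sst (-0.56) and the factor Lhx6 (-0.56) of cortical and hippocampal interneurons.

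Some activity-induced transcripts were lower in the 3 libraries, and most overlapped, with wide spread in the 4. In a list of 15 immediate early genes drawn up after values were seen, 5 were lower in all 3 libraries, 10 overlapped and none was higher (median -0.95). Arc, a spine protein induced by synaptic activity, was at 142, 174 and 167 CPM against 752, 510.0, 231 and 291 CPM. Egr4 was at 29.9, 44.2 and 36.6 CPM against 143, 127, 68.1 and 69.5 CPM. WT stress 3 and WT stress 4 were the highest for both genes, and the differences were larger within WT (-1.65 and -1.83) than within KO (-0.77 and -0.78). That contrast between the genotypes was not tested. Fos overlapped, at 28.7, 35.9 and 38.2 CPM against 101, 72.8, 17.2 and 30.9 CPM. The 10 genes that an earlier analysis of these same libraries had picked as raised by stress all overlapped between the sets, and their median of -0.27 turned to 0.69 in the WT libraries alone and to 0.24 without KO stress 3. Their sum was 120 CPM in WT stress 5, 36.9 CPM in KO stress 3 and 96.1 CPM in KO stress 5, against 76.5 to 89.1 CPM in the 4. S100a8, a neutrophil protein, was at 7.92, 0.430 and 3.84 CPM against 3.02, 9.29, 3.81 and 4.35 CPM, so KO stress 3 was the lowest of the 7. Its difference was 0.67 within WT and -1.27 within KO.

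The remaining 17 libraries, which did not enter the selection, allowed a test. Tcf7l2 ranged from 26.3 to 61.0 CPM in the 11 libraries with Rn45s above 15000 CPM and from 5.57 to 16.7 CPM in the 6 low-Rn45s controls. An edgeR quasi-likelihood fit related each gene to log2 Tcf7l2 with group and Rn45s set as further terms (16799 genes, 11 residual degrees of freedom). In that fit 2 genes (0.0119%) rose with Tcf7l2 at a Benjamini-Hochberg adjusted p under 0.05, and 0 (0%) fell. At an unadjusted p under 0.05 there were 573 with a slope above 0 (3.41%) and 634 below 0 (3.77%), 1207 in all where a share of 0.05 of all tests is 839.95. This total fell to 448 without KO control 1 and to 510.0 without WT control 1, both under that share, and reached 1855 without WT stress 1 and 1852 without WT stress 2. DESeq2 called 11 and 1. The 2 genes were Gbx2 (chr1:89927956-89931179, minus strand), with a slope of 2.22 ± 0.31 (SE) log2 units per log2 unit of Tcf7l2 and an edgeR adjusted p of 0.0108, and Vipr2 (chr12:116077726-116146261, plus strand), a receptor for the peptides VIP and PACAP, with 1.25 ± 0.18 (SE) and an edgeR adjusted p of 0.0108. Both calls were lost without KO control 1 or KO control 6 (0 genes rose) and without KO control 5 (1 other gene rose), and 1 of them was lost without WT control 1 (1 rose, 3 fell). In the 11 high-Rn45s libraries alone, 48 genes rose and 26 fell, with neither Gbx2 nor Vipr2 among them. In the 6 low-Rn45s controls alone, 0 rose. Tnnt1 and Shox2 followed, each with an edgeR adjusted p of 0.0587 and slopes of 1.16 and 2.63.

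In these 17 libraries the slopes of the thalamus list had 1 sign, and those of other diencephalic and midbrain lists had both. All 21 thalamus genes tested had a slope above 0, 20 of them with an unadjusted p under 0.05, and 1 passed the adjustment. Their median slope was 0.68, where the median of all genes was 0.01. Without KO control 1, 12 of the 21 had an unadjusted p under 0.05 (median slope 0.48), and without KO control 6 the median slope was 1.04. All slopes were above 0 in both cases. The habenula list had 8 of 10 slopes above 0 (1 with an unadjusted p under 0.05), the hypothalamus list 13 of 17 (1), the reticular thalamus and prethalamus list 5 of 8 (1) and the pretectum and midbrain list 5 of 14 (0, with 3 of the slopes below 0 at that p). All 17 choroid plexus genes had slopes above 0, none with an unadjusted p under 0.05. On the telencephalic side, 6 of 8 factors had slopes below 0, none with an unadjusted p under 0.05. Of the 1430 higher genes, 1428 were tested, 967 had slopes above 0 (67.7%, against 52.0% of all genes) and 128 also had an unadjusted p under 0.05 (8.96%, against 3.41% of all genes). Another 34 had slopes below 0 at that p (2.38%, against 3.77% of all genes). Of the 304 lower genes, 201 had slopes below 0 (66.1%, against 48.0% of all genes) and 6 also had an unadjusted p under 0.05 (1.97%, below the 3.77% of all genes).

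**Figure D4:**
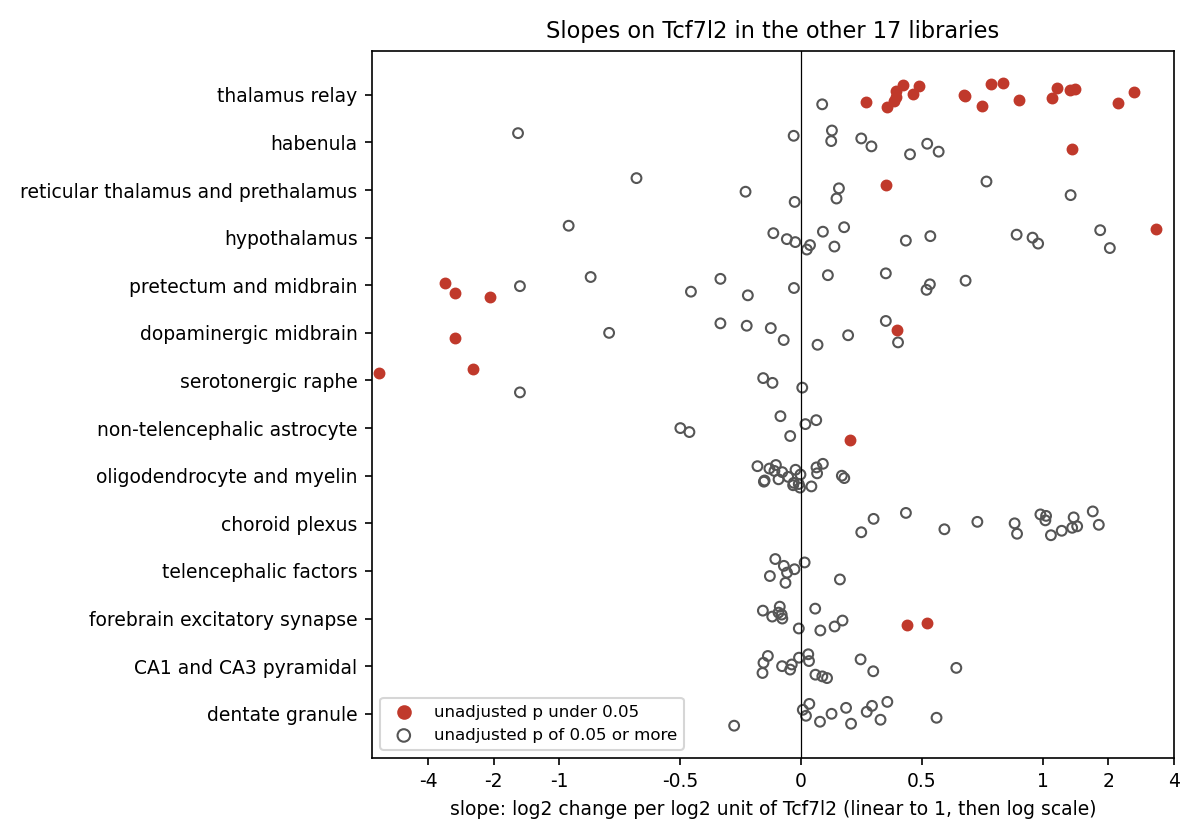
Slope on log2 Tcf7l2 in the 17 libraries outside the selection, 1 point per gene of the named list, on an axis that is linear from -1 to 1 and logarithmic beyond. All points of the thalamus list lie to the right of 0, and all but 1 of them are filled (unadjusted p under 0.05), whereas the midbrain and serotonin lists lie on both sides.

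Set against those 17 libraries, the high-Tcf7l2 libraries lay above all others for the sums of several lists, thalamus and dopamine among them. They did not for every region, nor for every gene of those lists. Without Tcf7l2, the thalamus list summed to 1545 to 1781 CPM in them, to 627 to 1357 CPM in the 11 high-Rn45s libraries and to 421 to 709 CPM in the 6 low-Rn45s controls, where the low-Tcf7l2 libraries had 415 to 520.2 CPM. The dopamine list summed to 376 to 470 CPM, above the 132 to 349 CPM of the high-Rn45s libraries. Its leading genes overlapped with the other 17 libraries, which reached 52.7 CPM of Slc6a3 and 44.7 CPM of Th. WT stress 5 had 48.2 CPM of Slc6a3 and 40.1 CPM of Th. The list of astrocytes outside the telencephalon summed to 1048 to 1173 CPM, against at most 727 CPM in the high-Rn45s libraries. The mammillary and subthalamic list summed to 21.6 to 24.2 CPM, against at most 17.5 CPM. For the habenula list the ranges overlapped, at 103 to 118 CPM against 52.5 to 105 CPM, and so they did for the hypothalamus list, at 189 to 495 CPM against 85.5 to 465 CPM. The telencephalic factors overlapped too: they summed to 469 to 539 CPM in the high-Tcf7l2 libraries and to 478 to 597 CPM in the high-Rn45s libraries, and to 826 to 993 CPM in the low-Tcf7l2 libraries and 852 to 944 CPM in the low-Rn45s controls. No library of the 24 lay between 597 and 826 CPM.

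**Figure D5:**
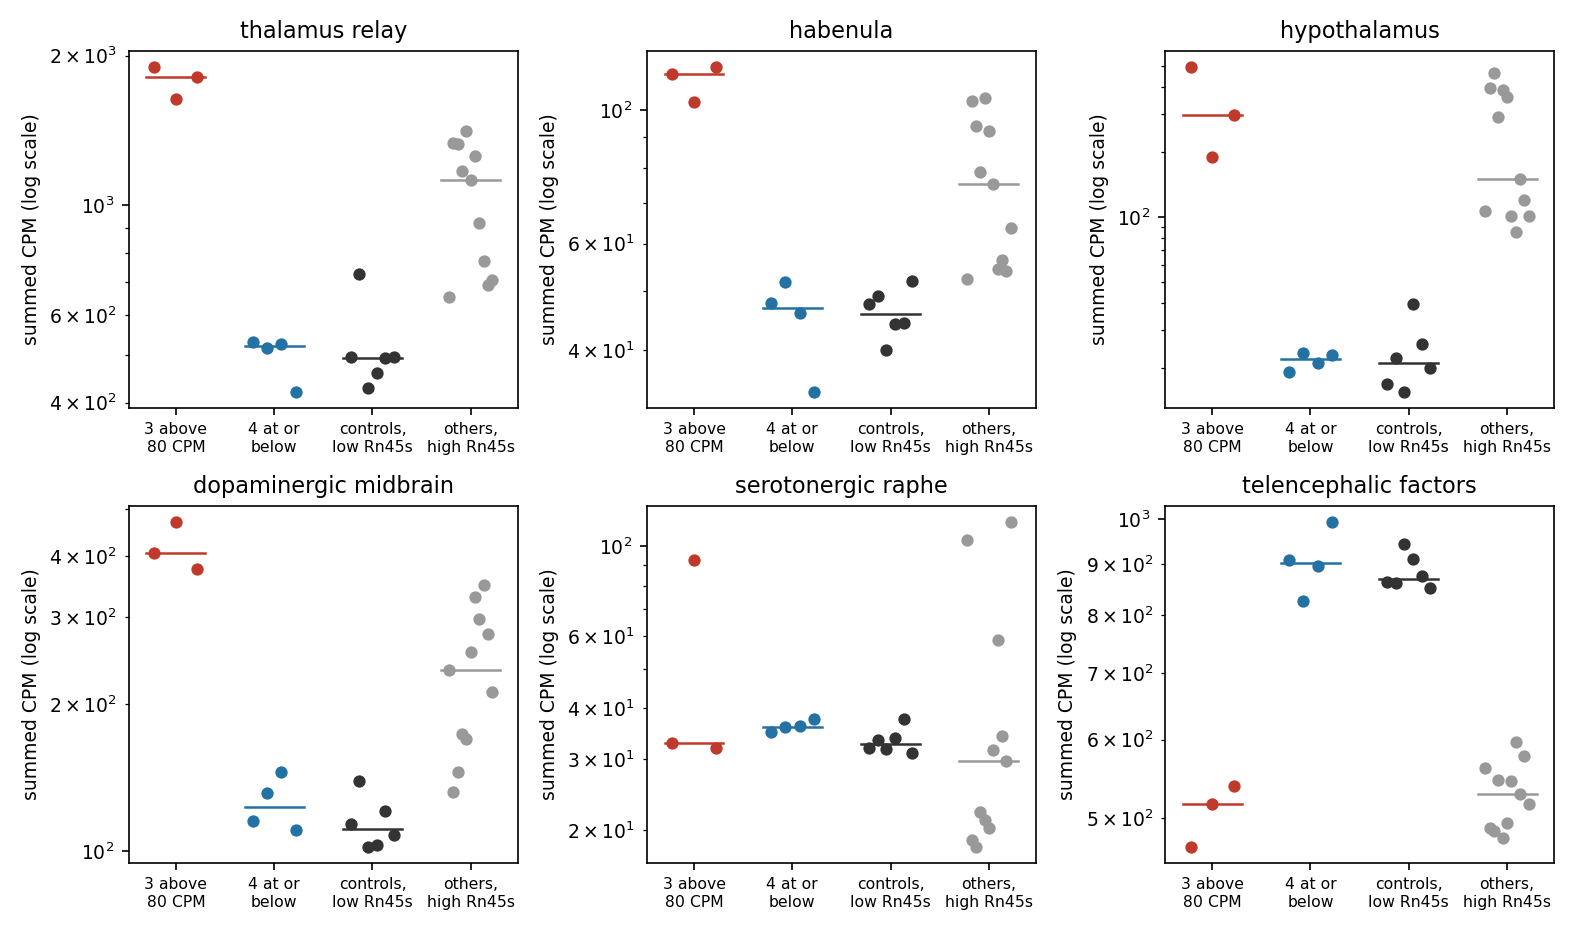
Summed CPM of 6 marker lists (log scale) in the 3 high-Tcf7l2 stress libraries, the 4 low-Tcf7l2 stress libraries, the 6 low-Rn45s controls and the 11 high-Rn45s libraries, 1 point per library with a line at the median (the thalamus list includes Tcf7l2). The 4 low-Tcf7l2 libraries overlap the low-Rn45s controls in every panel, and the telencephalic factors are low in both the 3 libraries and the 11.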

How the data were processed

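Total RNA from mouse hippocampus was sequenced in 24 libraries. The authors deposited 1 table of whole-number counts per gene, which is the only unit used here; their normalized counts and their table of comparisons were not used. The submitters' processing notes name STAR, DESeq2 and the mm10 genome, without roles. Overlapping and antisense genes cannot be told apart, since no strand setting, read counter or annotation is known (not given in the sources used here).

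Libraries were grouped by the labels, and the low-Rn45s set was taken as libraries at or below 15000 CPM of Rn45s. The 7 libraries and the marker lists were chosen with earlier results of these data known. CPM used column sums. Differences were means of log2(CPM + 0.5) over genes with a mean of at least 0.5 CPM, and over all genes a gene was counted as higher or lower where the sets did not overlap and the difference was at least 1.5-fold. Counts of list members use the absence of overlap alone, unless 1.5-fold is named. The limit for a count of 0 is 3 counts. Named genes were the 3 markers; the 15 largest and 15 smallest differences among genes with a mean of at least 2 CPM, no overlap and one direction within each genotype; up to 4 per list (8 for channels and GABA-A receptors); and up to 10 per direction by p in the fit over the other libraries. Further genes were chosen after their values were seen, and some items are not reported here.

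The other 17 libraries were fitted with edgeR 4.0.16 (robust quasi-likelihood test, TMM, minimum count of 10, Benjamini-Hochberg adjustment at 0.05) on group, Rn45s set and log2 Tcf7l2, in R 4.3.3 with limma 3.58.1. DESeq2 1.42.0, other scalings, pseudocounts, filters and terms, and leaving out each library were alternatives. The fit was tested on simulated data. The labels do not say that libraries are separate animals, so p-values measure only the spread between libraries. Same-numbered libraries showed no common deviation (16 pairs, correlation of deviations -0.477 to 0.455, median -0.0842). Pairs of different numbers gave -0.62 to 0.665 (median -0.0212). The Rn45s set was not removed from these deviations, so a weak shared factor could be missed. The libraries were not treated as pairs. Python 3.11.15, numpy 2.4.6, pandas 2.3.3 and matplotlib 3.10.9 were used for the rest. Promoters came from RefSeq and gene coordinates from GENCODE, both on GRCm38, the assembly that mm10 names.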

Additional observations from a re-analysis of the deposited data

Results flagged for a closer look

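The mean log2 level of each marker list was examined in 96 combinations of list and group for a library far from its group, and 10 stood out. Chance marks about 1 in 20 such groups. WT stress 5 stood above the other WT stress libraries for the thalamus list (5.695, next 4.006) and the hypothalamus list (2.929, next 1.055). KO stress 4 stood apart from the other KO stress libraries 4 times. It was lowest for the habenula list (1.326, next 2.717), the reticular thalamus and prethalamus list (1.216, next 3.006) and the mammillary and subthalamic list (-0.5905, next 1.398), and highest for the telencephalic factors (6.234, next 5.488). These libraries are the lone member of their genotype on their side of the selection, so part of this repeats the choice of libraries, and the thalamus list includes Tcf7l2.

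WT stress 6 was the lowest of the 4 low-Tcf7l2 libraries for the firing channels (5.645, next 5.954) and for oligodendrocyte and myelin genes (6.089, next 6.727), and the lowest of the WT stress libraries for oligodendrocyte precursor genes (5.035, next 5.331). WT stress 2, which is none of the 7, was the highest of its group for the serotonergic list (3.631, next 1.781). Tph2 differed in opposite directions within the genotypes, with a log2 difference of -0.8065 in the WT libraries and 1.723 in the KO libraries. That difference between genotypes was not tested, and the KO value comes from KO stress 5.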

How the results depend on the processing

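No named gene whose sets did not overlap, and no slope past the adjusted threshold, turned its sign. For those genes the absence of overlap fixes the sign in every setting except TMM and RLE scaling. Genes outside the rules for named genes were not checked for sign. Signs did turn for 8 named genes that overlapped (Ttr 3.78, but -0.45 in KO libraries alone, and S100a8 -0.68, but 0.67 in WT libraries alone). They also turned for 3 list medians and, without the Rn45s set, for 10 slopes. Lower genes numbered 465 with RLE scaling, and higher genes 834 with a minimum of 5 CPM. At 2-fold there were 556 higher and 36 lower. Leaving out each library gave 1307 to 1668 higher and 301 to 400 lower genes. The thalamus median (2.28 with Tcf7l2 in the list) was 2.08 with a pseudocount of 2 and 2.16 to 2.43 when each library was left out. The telencephalic median was -0.88 with TMM, -0.89 with RLE and -0.70 in WT libraries alone, and -0.84 to -0.74 when each library was left out.

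The test over the other 17 libraries depended on its terms. The counts that rose and fell were 2145 and 1839 without the Rn45s set, 29 and 12 with the thalamus list mean in place of Tcf7l2, 48 and 26 in the high-Rn45s libraries alone, and 11 and 1 with DESeq2. With Ttr as a further term 4 rose, and with a replicate block in place of the set 33 rose, although same-numbered libraries showed no common deviation. In the 6 low-Rn45s controls alone, an alternative chosen after seeing the data, 0 rose by edgeR with 192 genes at an unadjusted p under 0.05. Leaving out each library gave 0 to 4 that rose and 0 to 3 that fell. The causes were not tested. Depth limits statements on genes near 0.0854 to 0.115 CPM, the level that 3 counts give in the 7 libraries.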

Other observations

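A few transcripts, those of the kidney among them, stood out in a single library among the high-Tcf7l2 libraries, and they were picked after their values were seen. Their levels in the remaining libraries of the series are not given. Kap, an androgen-regulated protein of the kidney, was at 2.33 CPM in KO stress 3 and had no count in WT stress 5 or KO stress 5. Slc34a1, the phosphate transporter of the kidney tubule, was at 1.36 CPM in KO stress 3 and at 0.0602 and 0 CPM in WT stress 5 and KO stress 5. Ucn, a peptide of the corticotropin-releasing family made in the midbrain Edinger-Westphal nucleus, was at 3.84 CPM in KO stress 5 and at 0.963 and 1.36 CPM in the other two.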
